A study of Mus musculus with 8 samples.

Results

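NA2 and NA1c are 2 of the noradrenergic subtypes into which the study sorted the neurons of the mouse stellate ganglion, and they were compared here gene by gene within the same animals. All neurons annotated as NA2 or NA1c by the study were taken from each mouse that held at least 10 of both, which gave 150 NA2 and 216 NA1c neurons in 5 mice, 366 of the 1303 neurons in the deposited table. The mice were C57BL6/J animals of 8 to 10 weeks, adult males per the study's methods, and each had received a viral GFP label in the heart and a tdTomato label in the front paws. All animals carried both labels and there was no treatment group. The dissociation protocol describes 16 left and right ganglia combined, while the titles name single mice, so p-values here measure the spread between the 5 libraries. The values are unique molecular identifiers (UMIs, each counting 1 captured RNA molecule) per 10000 UMIs of a neuron, averaged over the neurons of a subtype in a mouse.

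The stellate ganglion holds sympathetic neurons that release noradrenaline on the heart, the upper limb and other targets, and most of them also store neuropeptide Y (NPY). Noradrenaline is made from tyrosine by tyrosine hydroxylase (Th), dopa decarboxylase (Ddc) and dopamine beta-hydroxylase (Dbh), is packed into vesicles by the monoamine transporter Slc18a2 and is taken back up by Slc6a2. Sympathetic subtypes differ in their peptides, receptors, ion channels and adhesion molecules, which set how a neuron fires and which cells it contacts.

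The pair was chosen with its similar depth and similar mean Npy in view, so both are a description of the choice. The median UMIs per NA2 neuron were 2046, 2124, 2332, 2300 and 4864 in mice 1 to 5, and those per NA1c neuron were 1969, 2400, 3239, 3688 and 3835. NA2 was the deeper subtype in 2 mice and the shallower in 3, with a mean difference of -293 ± 930 UMIs (SD, n = 5). Genes detected per neuron averaged 1377 ± 381 in NA2 and 1661 ± 341 in NA1c (SD, n = 5). NA2 made up 5.96% to 29.7% of the neurons of a mouse and NA1c 10.2% to 32.5%, with NA2 the more frequent in 2 of 5 mice (exact two-sided sign-flip permutation test, p = 0.5625). With 5 mice this exact permutation test cannot go below p = 0.0625. Neurons of the 5 libraries summed to between 916296 and 1196621 UMIs.

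Cell barcodes were shared between libraries, and this touched NA2 alone of the pair. Of the 150 NA2 neurons, 55 (36.7%) carried a barcode that also occurred among the neurons of 1 to 4 other libraries, 17, 8, 14, 14 and 2 of them in mice 1 to 5, and they came from 17 distinct barcodes. No NA1c neuron shared a barcode. Within a shared barcode the percent of UMIs from mitochondrial genes ranged by a median of 0.991 points between libraries, while barcodes averaged from 2.08% to 10.2%. Pairs of NA2 neurons with the same barcode in different libraries correlated at a median of 0.499 over all genes on the natural log scale (70 pairs), against 0.455 for pairs with different barcodes (1068 pairs). NA2 profiles that share barcodes may not be independent between libraries, so p-values with all neurons may be too small. The main results are therefore also given without these neurons, which left 10, 6, 35, 29 and 15 NA2 neurons in mice 1 to 5. Without them the mean difference in median UMIs turned to 721 ± 2240 more in NA2 (SD, n = 5). NA2 was then deeper in mice 2 and 5, where it had been deeper in mice 1 and 5. The turn rested largely on mouse 5, where the median was 8368 UMIs in NA2 and 3835 in NA1c, so depth was not similar there.

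NA2 and NA1c differed across much of the transcriptome, at similar median depth. NA1c held higher levels of nuclear long noncoding RNAs, the secretin receptor, the collagen gene Col5a3 and, in sum, sodium, calcium and potassium channels. Most glutamate receptor and axon guidance genes tested were higher in NA1c too, but few were tested, and largely those high in NA1c. NA2 held higher levels of transcripts for ribosomal proteins, respiratory chain subunits, proteasome subunits, calmodulin and tubulin. Of 3712 genes with a mean of at least 0.5 UMIs per 10000 in at least 5 of the 10 profiles, 2253 passed an adjusted p of 0.05 (60.7%; limma, blocking on mouse, with p-values adjusted over all genes tested by Benjamini-Hochberg), 1105 higher in NA2 (29.8%) and 1148 lower (30.9%). Without the neurons with a shared barcode, keeping all 5 mice, 1817 of 3784 passed (48%), 768 higher (20.3%) and 1049 lower (27.7%). In that fit 1686 of the 2253 genes passed again in the same direction, and 6 of the 2169 that were tested again had the opposite sign. The share called was 45.5% where at least 10 NA2 neurons had to remain (4 mice), 51.8% with each shared barcode kept once, and 41.9% after thinning to 2000 UMIs, which left out the shallower neurons and kept 101 NA2 and 169 NA1c neurons in 4 mice. The filter bears on counts over gene lists: 944 of the 3712 genes tested had a mean in NA2 under its level of 0.5 and 758 of them were called lower, while 472 had a mean in NA1c under 0.5 and 274 of them were called higher. A gene tested only because it was high in 1 subtype had to differ, so list counts are descriptions, to be read against the 29.8% and 30.9% of all genes. The shares called also differed with gene length, so counts of lists of long or short genes are to be read against genes of like span too. The subtypes are clusters of these same cells, so a small p says that a difference recurred over mice and is no independent evidence that the clusters differ.

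**Figure D1:**
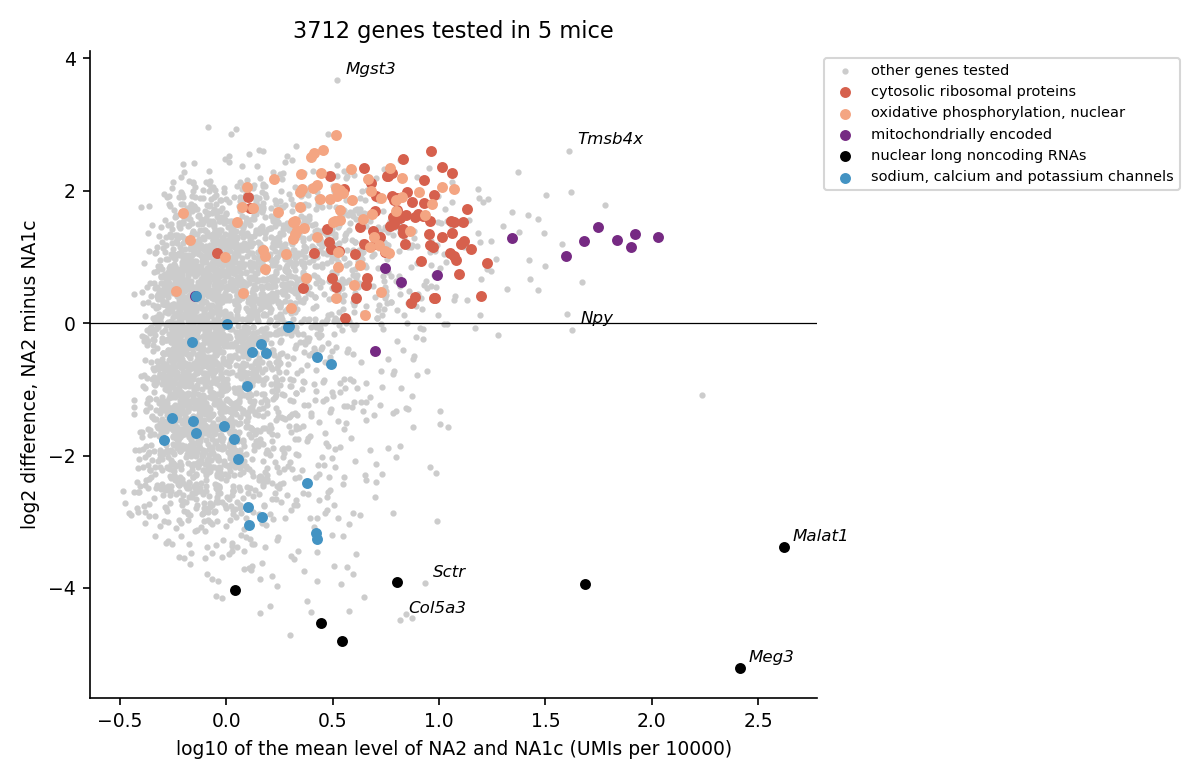
Difference between NA2 and NA1c for each of 3712 genes (log2 of mean UMIs per 10000 plus 0.1, vertical axis) against the mean level of both (log10, horizontal axis), 1 point a gene. Ribosomal protein and nuclear oxidative phosphorylation genes lie above 0, the nuclear long noncoding RNAs between -5.22 and -3.39, and Npy near 0.

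The leading peptide had nearly the same mean in both subtypes but was spread differently over their neurons. Npy (chr6:49822710-49829507, GRCm38) averaged 48.4, 31.2, 50.9, 35.1 and 39.1 UMIs per 10000 in NA2 of mice 1 to 5 and 44.4, 46.6, 45.7, 34.3 and 45.6 in NA1c. The groups overlapped, NA2 was the higher in 3 mice, and the log2 difference was -0.10, a value that the choice of the pair had fixed near 0. The mean over neurons of the deposited log values gave -1.03 on the log2 scale. Every NA1c neuron held at least 1 Npy UMI, whereas 5 of 27, 3 of 14, 9 of 49, 7 of 43 and 1 of 17 NA2 neurons held none. The 90th percentile over neurons was 110, 84.3, 122, 72.5 and 94.9 UMIs per 10000 in NA2 and 79.9, 80.6, 80.6, 63.6 and 82.1 in NA1c, higher in NA2 in every mouse, although the single highest neuron of mouse 2 was in NA1c (144 against 122). The SD of Npy over the neurons of a mouse averaged 43.0 in NA2 and 26.4 in NA1c and was higher in NA2 in 5 of 5 mice. Npy had a part in the choice of the pair, so its spread is given as a description. Without shared barcodes 1, 0, 5, 4 and 0 NA2 neurons lacked Npy, and in mouse 2, with 6 neurons left, the SD fell to 15.1, under the 26.5 of NA1c, and the 90th percentile to 37.1, under 80.6. After thinning to 2000 UMIs, 76.2% of 101 NA2 and 100% of 169 NA1c neurons held Npy, next to 33.3% of 12 neurons of the glutamatergic subtype, whose 90th percentile of Npy was 13.1 UMIs per 10000. Before thinning those shares were 83.3%, 100% and 64.7%, at median depths of 2342, 2779 and 2346 UMIs. A caption of the study to its immunostaining excepts NA2 and the glutamatergic subtype from the subtypes with high or low Npy. That caption concerned stained sections, while the values here are RNA.

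Of the other peptides measured, galanin (Gal), a co-transmitter of sympathetic neurons, averaged 12.6, 8.64, 18.2, 11.9 and 15.2 UMIs per 10000 in NA2 and 9.48, 7.46, 13.4, 9.48 and 11.8 in NA1c. NA2 was the higher in every mouse, but the groups overlapped and the log2 difference of 0.35 ± 0.16 (SE) missed the threshold (limma adjusted p = 0.0723). Vip, vasoactive intestinal peptide, stayed at or under 2.54 UMIs per 10000 in every mouse and subtype. Sst, somatostatin, had a UMI in 0 of 150 NA2 neurons and in 0.463% of NA1c neurons and was not tested. Of the 23 peptide genes in the table, 3 were tested, Npy among them, and none of the other two passed.

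Of 13 noradrenaline genes tested, 9 were higher in NA2 and 1 lower, against 29.8% and 30.9% of all genes tested. Without shared barcodes 7 were higher and 1 lower, against 20.3% and 27.7% of all genes. Dbh averaged 9.33, 9.58, 13.5, 10.2 and 11 UMIs per 10000 in NA2 and 14.0, 11.9, 8.57, 8.16 and 12.1 in NA1c, overlapping groups with a log2 difference of -0.01 ± 0.19 (SE; limma adjusted p = 0.963). Slc6a2 also did not pass (-0.07 ± 0.18; limma adjusted p = 0.76). Th averaged 8.70, 7.80, 10.6, 6.11 and 9.14 in NA2 and 7.01, 6.26, 5.28, 5.05 and 6.13 in NA1c, a log2 difference of 0.49 ± 0.18 that passed (limma adjusted p = 0.0242) but not without shared barcodes (0.49, adjusted p = 0.057). The vesicular transporter Slc18a2 was the gene of this list that was lower in NA2, at 3.53, 2.03, 4.45, 3.92 and 5.48 against 10.6, 9.77, 13, 11.7 and 11.2, with no overlap and a log2 difference of -1.57 ± 0.19 (SE; limma adjusted p = 1.66e-06; -1.47 without shared barcodes). Gch1, which starts the synthesis of tetrahydrobiopterin, the cofactor of Th, was higher in NA2, at 4.53 ± 1.14 against 1.68 ± 0.569 UMIs per 10000 (SD, n = 5) and Pts at 1.61 ± 0.43 against 0.345 ± 0.176. Qdpr and Spr, which regenerate and complete the cofactor, passed too, but not after thinning (0.21 and 0.73, limma adjusted p = 0.634 and 0.361). Of the markers used for neurons, Snap25 did not differ past the test (8.15 ± 1.34 against 8.60 ± 1.08). Of 9 tested, 4 were higher in NA2, among them Tubb3 and Stmn2, and 1, Map2, was lower, against 29.8% and 30.9% of all genes. The 10 neuron markers summed to between 214 and 247 UMIs per 10000 in NA2 and between 137 and 164 in NA1c, and Rbfox3 was at 0 in NA2.

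**Figure D2:**
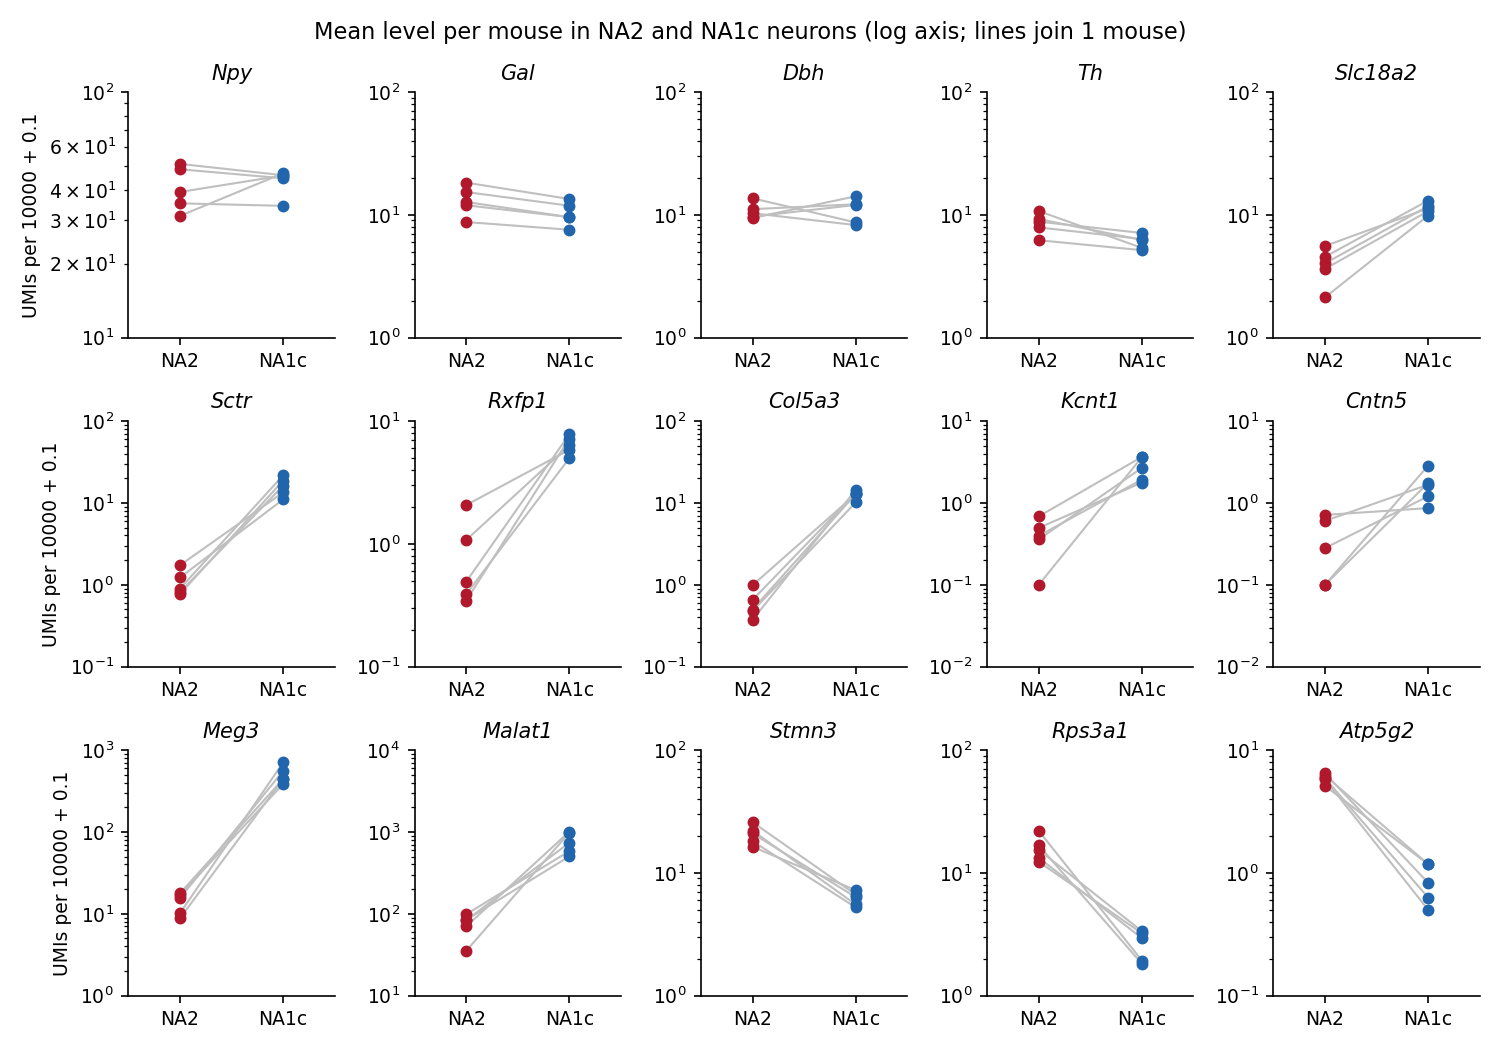
Mean level of 15 genes in NA2 (red) and NA1c (blue) neurons of 5 mice, in UMIs per 10000 plus 0.1 on log axes that differ between panels; grey lines join the subtypes of 1 mouse. Npy, Gal, Dbh and Th overlap between the subtypes, and the other 11 genes do not.

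Few receptors for peptides were high enough to test, and 3 of the 5 tested were higher in NA1c. Sctr (chr1:120006894-120063536), the secretin receptor, which couples to cyclic AMP, averaged 0.714, 0.798, 1.13, 0.672 and 1.63 UMIs per 10000 in NA2 and 16.1, 21.6, 10.9, 18.6 and 13.3 in NA1c. The lowest NA1c mouse lay above the highest NA2 mouse, and NA1c was 15.2-fold higher on the log2(value + 0.1) scale (log2 difference -3.93 ± 0.25 (SE), limma adjusted p = 1.14e-09; -3.64 without shared barcodes). Thinned to 2000 UMIs, 87.0% of NA1c and 15.8% of NA2 neurons held a Sctr UMI, next to 10.8% of the 195 NA1b neurons, whose mean level was 0.75 (88.4%, 23.3% and 13.1% before thinning; median NA1b depth 3338 UMIs). Sctr was not particular to NA1c: in NA1a 69.3% of 176 thinned neurons held it, at a mean level of 7.74. The thinned share was 29.4% in NA3 and 30.6% in Ach1. Rxfp1 (chr3:79641611-79737880), a relaxin receptor, averaged 0.289, 0.245, 0.975, 0.392 and 1.97 in NA2 and 4.89, 7.10, 6.25, 7.71 and 5.73 in NA1c, again without overlap (log2 difference -3.22 ± 0.33 (SE), limma adjusted p = 2.27e-07; -2.91 without shared barcodes). Rxfp1 averaged 5.88 in NA1a, near its level in NA1c, and 0.665 in NA1b. Adcyap1r1, the receptor of the peptide PACAP, was also lower in NA2 (0.404 ± 0.282 against 1.67 ± 0.667; SD, n = 5). Ramp1, which forms the CGRP receptor with Calcrl, went the other way, at 2.39 ± 0.481 in NA2 and 0.557 ± 0.234 in NA1c. Of 5 peptide receptor genes tested, 1 was higher in NA2 and 3 lower, both with and without shared barcodes. Of all genes tested 29.8% were higher and 30.9% lower, and 20.3% and 27.7% without shared barcodes.

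Col5a3 (chr9:20770050-20815067), which encodes a chain of type V collagen, averaged 0.378, 0.397, 0.552, 0.272 and 0.886 UMIs per 10000 in NA2 and 10.0, 12.7, 13.1, 14.3 and 12.7 in NA1c. It was lower in NA2 in every mouse, by 22.3-fold on the log2(value + 0.1) scale (log2 difference -4.48 ± 0.24 (SE), limma adjusted p = 1.3e-10; -5.44 without shared barcodes). Its level was 7.06 in NA1a and 34.2 in NA1b, so NA2 was the lowest of these 4 noradrenergic subtypes. Cntn5, a contactin of the axon surface, was at 0.613, 0, 0.502, 0.18 and 0 in NA2 and 0.764, 1.65, 1.57, 1.11 and 2.75 in NA1c, close together in mouse 1 but not overlapping (log2 difference -2.56 ± 0.53 (SE), limma adjusted p = 0.000432; -2.41 without shared barcodes). Casz1, a zinc finger transcription factor, averaged 0.395 ± 0.345 in NA2 and 1.92 ± 0.376 in NA1c. Vim and Ngfr, the intermediate filament vimentin and the low-affinity neurotrophin receptor, did not pass (log2 differences 0.25 ± 0.29 and 0.06 ± 0.25; limma adjusted p = 0.457 and 0.843). After thinning to 2000 UMIs Ngfr passed as higher in NA2 (0.95, limma adjusted p = 0.0311). Fabp7, also a satellite glia marker, was lower in NA2 (1.01 ± 0.429 against 2.43 ± 1.78) and lost its call without shared barcodes (adjusted p = 0.206). Of 15 genes named by the study that were tested, 2 were higher in NA2, Th among them, and 6 lower, and 1 and 5 without shared barcodes. The study chose these genes on these samples, so their directions are not independent evidence.

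Of the gene lists, the nuclear long noncoding RNAs had the largest median difference. These transcripts are kept in or near the nucleus, where Malat1 and Neat1 belong to nuclear speckles and paraspeckles and Meg3 is the maternally expressed RNA of an imprinted cluster. Meg3 (chr12:109541001-109571726) averaged 15.5, 10.1, 17.7, 8.72 and 16.7 UMIs per 10000 in NA2 and 556, 704, 442, 444 and 386 in NA1c. The groups lay more than an order of magnitude apart, and the fitted difference was 37.2-fold (log2 -5.22 ± 0.24 (SE), limma adjusted p = 1.71e-11; -5.21 without shared barcodes). Malat1 (chr19:5795690-5802672), a single-exon RNA, averaged 84.3, 98.4, 70.1, 35.1 and 83.3 in NA2 and 502, 584, 1009, 981 and 738 in NA1c (log2 difference -3.39 ± 0.31 (SE), limma adjusted p = 6.11e-08; -3.28 without shared barcodes). Snhg11 averaged 6.29 ± 2.68 in NA2 and 91.3 ± 18.2 in NA1c (SD, n = 5), Miat 0.182 ± 0.146 and 6.82 ± 1.31, Neat1 0.198 ± 0.23 and 5.38 ± 0.431, and Kcnq1ot1, antisense to Kcnq1, 0.781 ± 0.399 and 11.9 ± 1.62. All 7 nuclear noncoding RNAs tested were lower in NA2, with and without shared barcodes, at a median of -4.03 (0.01 over all genes tested) and without overlap between the mice, a separation that 22.2% of all genes tested showed in this direction.

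As a share of a neuron's UMIs, the 7 noncoding RNAs took 1.10%, 1.12%, 0.964%, 0.481% and 1.10% in NA2 of mice 1 to 5 and 11.5%, 14.0%, 15.9%, 15.5% and 12.4% in NA1c. The difference averaged -12.9 points and had the same sign in 5 of 5 mice (exact permutation p = 0.0625). Without Malat1 the shares were 0.212% ± 0.071 and 6.24% ± 1.2 (SD, n = 5). Without shared barcodes the NA2 share of all 7 was 1.14% ± 0.56. The separation ran through single neurons. The median share was 0.531% over the 150 NA2 neurons, whose highest reached 12.6%, and 13.4% over the 216 NA1c neurons, of which 215 lay above the NA2 median. NA1a (12.7% ± 1.5) and NA1b (14.1% ± 1.9) lay near NA1c. In the 3 mice whose names matched no sample, pooled over 25 NA2 and 23 NA1c neurons, the shares were 1.28% and 10.2%.

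**Figure D3:**
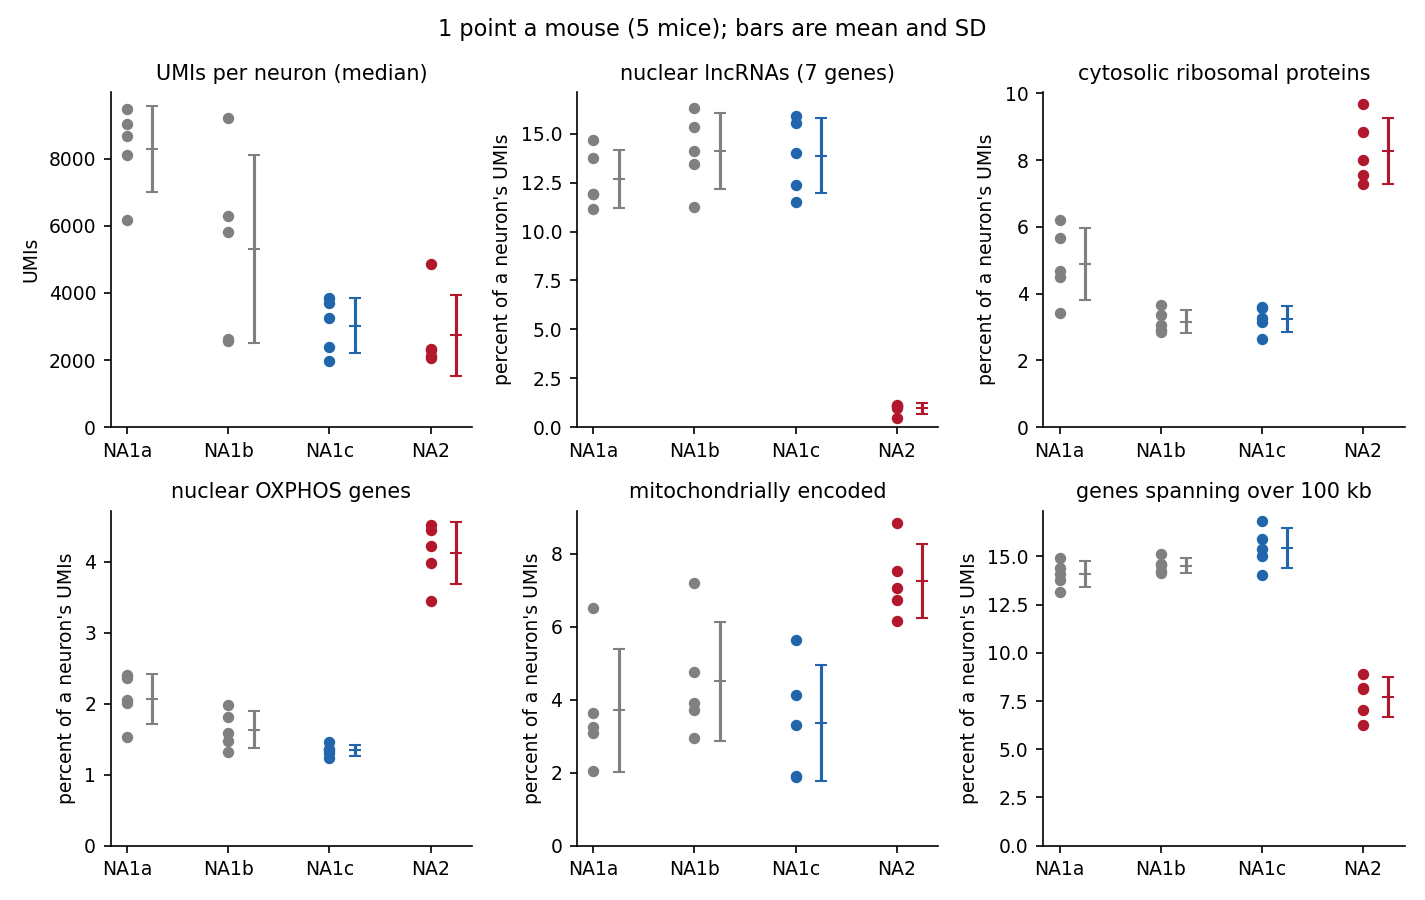
Median UMIs per neuron and the mean percent of a neuron's UMIs from 5 gene groups in NA1a, NA1b, NA1c and NA2, 1 point a mouse, with mean and SD over 5 mice beside the points. Nuclear noncoding RNAs took 0.955% ± 0.27 in NA2 and 13.9% ± 1.9 in NA1c, ribosomal protein transcripts 8.28% ± 0.99 and 3.25% ± 0.39.

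Transcripts for the translation machinery went the other way. Rps3a1 (chr3:86137940-86142702), a protein of the small ribosomal subunit, averaged 15.3, 21.9, 12.2, 13.2 and 16.6 UMIs per 10000 in NA2 and 3.25, 1.83, 3.11, 2.84 and 1.72 in NA1c. All NA2 mice lay above all NA1c mice, as for 20.8% of all genes tested, by a fitted 6.08-fold (log2 difference 2.60 ± 0.22 (SE), limma adjusted p = 3.64e-08; 2.40 without shared barcodes). Rpl15 was at 11.5 ± 1.32 and 1.99 ± 0.339 and Rps16 at 10.1 ± 2.62 and 1.97 ± 0.151 (SD, n = 5). Of all genes tested 29.8% were higher in NA2, and of those that span under 5 kb 73.5%. The 80 cytosolic ribosomal protein genes tested had a median genomic span of 3.27 kb. Of these 80, 73 were higher in NA2 and 0 lower, at a median of 1.41, and without shared barcodes 75 and 0 at 1.42. These genes took 8.85%, 9.69%, 7.28%, 7.56% and 8.01% of UMIs in NA2 and 3.27%, 3.58%, 3.61%, 3.15% and 2.65% in NA1c (exact permutation p = 0.0625), and without shared barcodes 8.55% ± 2.1 in NA2. Each of the 150 NA2 neurons lay above the NA1c median, and 124 lay above the highest NA1c neuron. NA1a was at 4.89% ± 1.1 and NA1b at 3.17% ± 0.34. Ribosomal protein genes have near-identical processed pseudogenes, between which the counting could divide reads.

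For Rps3a1, Rpl15, Meg3 and Col5a3 the sequence before the gene is given as the 120 bases before the start site on the gene's own strand (RefSeq, GRCm38.p6), because the ribosomal protein genes moved together. Capitals mark CCGGAAG, the core to which ETS factors bind, or TATAAA, the TATA box, each searched on both strands, overlaps included. The windows are chr3:86142669-86142788 and chr14:18270987-18271106 on the minus strand, chr12:109540876-109540995 on the plus strand and chr9:20815068-20815187 on the minus strand.
Rps3a1: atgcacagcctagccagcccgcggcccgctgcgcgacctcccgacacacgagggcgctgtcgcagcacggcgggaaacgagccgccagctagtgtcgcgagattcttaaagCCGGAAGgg
Rpl15: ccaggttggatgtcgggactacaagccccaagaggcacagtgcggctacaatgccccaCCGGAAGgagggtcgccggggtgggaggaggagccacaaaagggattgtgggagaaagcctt
Meg3: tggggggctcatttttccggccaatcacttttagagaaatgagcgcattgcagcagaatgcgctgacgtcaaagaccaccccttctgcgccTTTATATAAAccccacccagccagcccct
Col5a3: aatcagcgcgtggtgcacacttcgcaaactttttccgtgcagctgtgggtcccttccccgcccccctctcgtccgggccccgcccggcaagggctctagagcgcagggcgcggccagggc
CCGGAAG began 9 bases before the start of Rps3a1 and 62 before that of Rpl15, TATAAA began 25 bases before that of Meg3 and its reverse complement TTTATA, overlapping it, 29 before, and the Col5a3 window held neither. In the whole RefSeq windows of 300 bases around the start, CCGGAAG was in 25.2% of the 869 genes higher in NA2 that had an entry, 13.5% of the 901 lower, 21.1% of the 1168 not called and 11% of all 20559 promoters. TATAAA was in 9.32%, 4.11%, 5.91% and 13.2% of the same 4 sets. CCGGAAG was also in 39.3% of 56 tested ribosomal protein genes. These 56 were found by their symbols and had an entry, and are not the whole list of 80. These matches are a description of the windows.

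Genes of oxidative phosphorylation, the mitochondrial pathway that makes ATP, were also higher in NA2, whether encoded in the nucleus or in mitochondria. Atp5g2 (chr15:102662864-102672352), a subunit of the ATP synthase ring, averaged 5.67, 6.36, 6.09, 5.79 and 5.00 UMIs per 10000 in NA2 and 0.400, 0.728, 1.07, 0.528 and 1.08 in NA1c, without overlap (log2 difference 2.85 ± 0.25 (SE), limma adjusted p = 4.61e-08; 2.66 without shared barcodes). Cox4i1 and Cox7a2, subunits of cytochrome c oxidase, were at 16.7 ± 3.67 against 3.92 ± 0.773 and 9.86 ± 1.72 against 1.90 ± 0.554 (SD, n = 5). Of all genes tested that span 5 to 20 kb, 41.1% were higher in NA2. The 75 nuclear oxidative phosphorylation genes tested had a median genomic span of 7.37 kb. Of these 75, 69 were higher in NA2 and 0 lower (median 1.66), and without shared barcodes 59 of 73 and 0 (median 1.55). They took 4.12% ± 0.43 of UMIs in NA2 and 1.34% ± 0.081 in NA1c, with NA1a at 2.07% ± 0.35 and NA1b at 1.63% ± 0.26. Of the 13 mitochondrially encoded genes, 10 were higher in NA2 (median 1.16). Their share was 7.06%, 7.54%, 6.16%, 6.74% and 8.84% in NA2 and 5.65%, 4.14%, 1.88%, 1.90% and 3.30% in NA1c, non-overlapping but close in mouse 1. Without shared barcodes NA2 averaged 3.86% ± 0.42 for the nuclear and 8.83% ± 1.8 for the mitochondrial genes. The mitochondrial share is also a common measure of cell quality, and its part in these results was not tested.

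**Figure D4:**
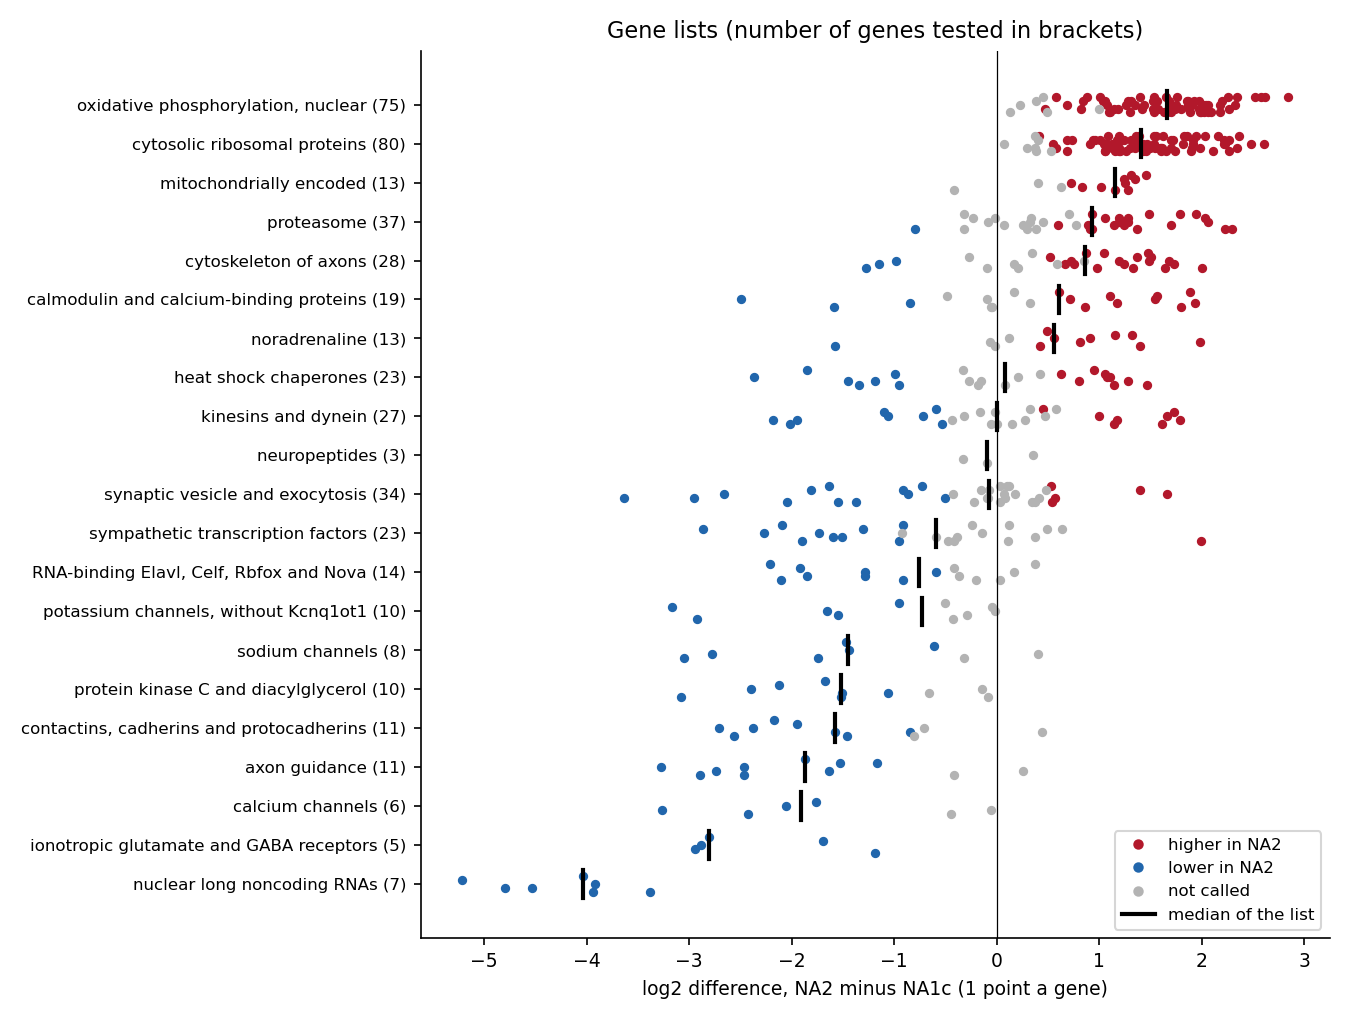
Log2 difference between NA2 and NA1c of each tested gene in 21 gene lists (1 point a gene; red higher in NA2, blue lower, grey not called), with the list's median as a black bar. The lists run from nuclear noncoding RNAs (median -4.03) to nuclear oxidative phosphorylation (median 1.66).

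Among the genes of protein turnover and the cytoskeleton, most calls were also higher in NA2. Over all genes tested 29.8% were higher and 30.9% lower, and 20.3% and 27.7% without shared barcodes. Of 37 proteasome genes tested, 22 were higher in NA2 and 1 lower (median 0.93; 15 and 1 without shared barcodes), and the catalytic subunits Psmb5 and Psmb6 were at 5.87 ± 1.21 against 1.25 ± 0.775 and 5.71 ± 1.21 against 1.34 ± 0.425 UMIs per 10000 (SD, n = 5). Of 28 genes of the axonal cytoskeleton, 18 were higher and 3 lower (median 0.86; 18 and 3 without shared barcodes). Stmn3, a stathmin that binds tubulin, averaged 21.9, 18, 25.8, 20.9 and 16.2 in NA2 and 5.43, 5.14, 6.55, 6.24 and 7.13 in NA1c, and Tuba1a, an alpha-tubulin, 33.3, 39.4, 39.7, 45.7 and 40.0 against 15, 12, 12.8, 11.8 and 11.5. Both were apart in every mouse (log2 differences 1.73 ± 0.18 and 1.64 ± 0.18 (SE); limma adjusted p = 2.3e-07 and 4.07e-07; 1.39 and 1.78 without shared barcodes). Map2, a dendritic microtubule protein, was lower in NA2, at 2.42 ± 1.38 against 5.39 ± 1.17. Of 27 kinesin and dynein genes 8 were higher and 8 lower (5 and 5 without shared barcodes), each about the share of all genes tested (29.8% and 30.9%). The light chain Dynll1 was higher (16.4 ± 4.03 against 4.83 ± 0.823) and the heavy chain Dync1h1 lower (2.62 ± 1.21 against 9.97 ± 1.03).

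Calmodulin and calcium-binding proteins, which sense and buffer calcium in the cell, were mostly higher in NA2 where they passed. Calm2, a calmodulin gene, was at 24.4 ± 3.27 UMIs per 10000 in NA2 and 6.50 ± 0.482 in NA1c (SD, n = 5). The calmodulin-dependent kinase genes Camk2b and Camk2d were lower in NA2 (0.615 ± 0.469 against 2.93 ± 0.504 and 1.04 ± 0.195 against 3.34 ± 0.695). Of 19 genes of this list, 10 were higher and 3 lower (7 and 2 without shared barcodes), where 29.8% and 30.9% of all genes tested were called. Among sodium pump and FXYD genes, 5 of 8 were higher and 0 lower, led by Fxyd2 at 15 ± 3.3 against 2.86 ± 0.608. Without shared barcodes 4 were higher and 1 lower, where 20.3% and 27.7% of all genes tested were called.

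No voltage-gated channel gene was higher in NA2 past the test. Kcnt1, a sodium-activated potassium channel, averaged 0.584, 0, 0.258, 0.296 and 0.394 UMIs per 10000 in NA2 and 3.55, 3.52, 2.58, 1.83 and 1.67 in NA1c (log2 difference -2.93 ± 0.42 (SE), limma adjusted p = 1.02e-05; -2.57 without shared barcodes). Every NA1c mouse lay above every NA2 mouse. Scn8a and Scn2a, voltage-gated sodium channels, were at 0.242 ± 0.194 against 2.31 ± 0.265 and 0.281 ± 0.167 against 2.24 ± 0.582, and Cacna1a and Cacna1b, the pore subunits of P/Q-type and N-type calcium channels, at 0.423 ± 0.108 against 4.92 ± 1.08 and 0.701 ± 0.231 against 4.10 ± 0.673 (SD, n = 5). Among potassium channels 5 of 10 tested were lower in NA2, among sodium channels 6 of 8 and among calcium channels 4 of 6 (4 of 12, 6 of 8 and 4 of 6 without shared barcodes). The potassium count leaves out Kcnq1ot1, which the symbol search had caught and which is no channel. The tested genes of these lists had median genomic spans of 90.7, 151 and 206 kb. Of all genes tested 30.9% were lower in NA2, of those that span 50 to 100 kb 49.1%, and of those over 100 kb 61.5%. Of the 89 potassium, 15 sodium and 24 calcium channel genes in the table most were too low to test, and 4, 5 and 3 of those called had a mean in NA2 under the filter. Gria2, a subunit of AMPA-type glutamate receptors, was at 0.547 ± 0.217 against 4.81 ± 1.34. Of 34 ionotropic glutamate and GABA receptor genes only 5 were tested, 4 of them with a mean in NA2 under the filter, so that their being lower in all 5 cases was largely set by the filter. Summed without a filter, the sodium, calcium and potassium channels took 0.267% ± 0.029 of UMIs in NA2 and 0.614% ± 0.028 in NA1c (0.295% ± 0.037 in NA2 without shared barcodes).

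Surface molecules that guide axons showed the same direction. Of 11 axon guidance genes tested, 9 were lower in NA2 and 0 higher (median -1.87; 9 of 12 and 0 without shared barcodes), and of 11 contactins, cadherins and protocadherins 8 were lower and 0 higher (median -1.58; 5 and 0). These were 11 of 70 and 11 of 98 genes in the table, and 6 and 7 of them had a mean in NA2 under the filter. Their median genomic spans were 277 and 410 kb, and of all genes tested that span over 100 kb 61.5% were lower in NA2. Sema6d, a semaphorin, was at 1.00 ± 0.603 against 7.46 ± 1.61, the plexin Plxna4 at 1.43 ± 0.326 against 5.41 ± 0.813 and the ephrin receptor Epha5 at 5.12 ± 1.57 against 15.1 ± 5.12 UMIs per 10000 (SD, n = 5). Pcdh9 and Pcdh7, protocadherins, were at 0.612 ± 0.334 against 2.85 ± 0.65 and 0.613 ± 0.623 against 3.00 ± 0.731. Protein kinase C and diacylglycerol genes were lower in 7 of 10 and higher in 0, 5 of the 10 with a mean in NA2 under the filter, and included the diacylglycerol kinases Dgkz (0.607 ± 0.394 against 4.58 ± 0.957) and Dgkh (1.65 ± 0.85 against 8.49 ± 2.27). RNA-binding proteins of the Elavl, Celf, Rbfox and related families, which shape neuronal splicing and RNA stability, were lower in 8 of 14 and higher in 0, such as Elavl3 (1.86 ± 0.566 against 7.56 ± 3.07). The tested protein kinase C and diacylglycerol genes had a median span of 267 kb and the tested RNA-binding genes 153 kb.

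Sympathetic transcription factors that passed were mostly lower in NA2, although without shared barcodes the share lower was near that of all genes. Zbtb20 averaged 1.34, 0.670, 1.71, 1.21 and 2.47 UMIs per 10000 in NA2 and 10.6, 10.5, 10.8, 9.95 and 11.2 in NA1c (log2 difference -2.87 ± 0.22 (SE), limma adjusted p = 1.21e-08; -2.82 without shared barcodes), and Tcf4 and Zfhx3 were lower too (1.48 ± 0.411 against 6.54 ± 1.37 and 1.39 ± 0.737 against 5.12 ± 1.2). Phox2a, a homeodomain factor of the noradrenergic lineage, was the exception, at 9.90, 6.85, 8.74, 7.79 and 6.15 in NA2 and 1.68, 1.82, 1.84, 1.85 and 2.26 in NA1c, with all NA2 mice above (log2 difference 1.99 ± 0.20 (SE), limma adjusted p = 2.27e-07; 1.67 without shared barcodes). Of 23 sympathetic transcription factors, 1 was higher and 10 lower, 5 of the 10 with a mean in NA2 under the filter, against 29.8% and 30.9% of all genes. Without shared barcodes 2 of 24 were higher and 7 lower, against 20.3% and 27.7% of all genes. Of 34 synaptic vesicle genes, 5 were higher and 12 lower (4 and 12 without shared barcodes), where 29.8% and 30.9% of all genes tested were called. The share lower was thus near that of all genes, and 5 of the 12 had a mean in NA2 under the filter. Rab3a was at 7.36 ± 1.36 against 2.26 ± 0.476 and Unc13a, a priming factor, at 0.392 ± 0.19 against 2.90 ± 0.636.

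Heat shock chaperones and immediate early genes, which can respond to cell handling, were called in both directions. Of 23 chaperones 9 were higher in NA2 and 7 lower, where 29.8% and 30.9% of all genes tested were called, so the share lower was near that of all genes. Without shared barcodes 8 of 24 and 6 were, against 20.3% and 27.7% of all genes. Hspa8 was at 34.8 ± 3.89 against 17.9 ± 1.07 and Hsph1 at 1.40 ± 0.138 against 7.68 ± 1.17 (SD, n = 5). Of 9 immediate early genes Jund was higher (5.31 ± 0.966 against 1.99 ± 0.318) and 4 were lower, among them Fosb (0.0772 ± 0.05 against 0.914 ± 0.295), and without shared barcodes 1 was higher and 2 lower. Satellite glia wrap these neurons in the ganglion. Of 13 satellite glia markers, 4 of the 5 tested were lower in NA2 (2 without shared barcodes), among them Apoe at 2.90 ± 0.708 against 7.68 ± 4.2. Of these 4, 2 had a mean in NA2 under the filter. Their summed level ran from 6.22 to 14.0 UMIs per 10000 in NA2 and from 9.87 to 30.2 in NA1c, with Kcnj10 and Fbln5 at 0 in NA2, and the part of glial RNA in the differences was not tested. Markers of immune and of smooth muscle cells were too low to be tested. They summed to at most 0.642 and 0.286 in NA2 and 2.00 and 0.641 in NA1c, and 4 of 10 and 6 of 10 of them were at 0 in NA2, Ptprc and Acta2 included.

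The remaining lists held few genes over the filter, and their counts are given as a description. Of 17 genes of adenylyl cyclases, phosphodiesterases and protein kinase A, which make, degrade and sense cyclic AMP, 5 were higher in NA2 and 6 lower (3 and 7 of 16 without shared barcodes), near the 29.8% and 30.9% of all genes, with the anchoring protein Akap13 lower (log2 difference -2.32) and the kinase subunit Prkaca higher (1.15). Of 11 granins and prohormone processing genes 3 were higher, near the share of all genes, and 1 lower, and the granins Scg2 and Chga took opposite signs (0.81 and -1.26). All 3 collagen and matrix genes tested, of 62 in the table, were lower, each with a mean in NA2 under the filter. Of 3 HCN, TRP and related channels 2 were lower, neither without shared barcodes, with Trpc4ap left out as no channel. Of 5 neurotrophic factor receptors 1 was lower, of 4 Hox genes 1 was lower, and of 4 genes of BMP and TGF-beta signalling 1 was higher and 1 lower. No cholinergic receptor (3 tested) and no acetylcholine gene (1 tested) passed, and the 1 metabotropic receptor tested was lower. Of the markers of other cells, 3 of 5 chromaffin genes were higher and 1 lower, with Penk at 0 in both subtypes and a summed level of 22.7 to 29.8 UMIs per 10000 in NA2 and 19 to 27.7 in NA1c. Both fibroblast genes tested were lower (sums 1.11 to 2.80 and 2.43 to 6.68), the 1 Schwann cell gene tested was higher (sums 2.92 to 3.89 and 2.43 to 3.73, with 6 of 10 at 0 in NA2, Mag and Prx included) and the 1 endothelial gene did not pass (sums 0.647 to 1.56 and 0.535 to 0.899).

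The largest differences over all genes followed these groups only in part. The gene furthest above in NA2 was Mgst3 (chr1:167371966-167393841), a microsomal glutathione transferase, at 6.07, 7.56, 4.79, 7.64 and 4.68 UMIs per 10000 against 0.489, 0.346, 0.0704, 1.20 and 0.336 in NA1c. Every NA2 mouse lay above every NA1c mouse, by a fitted 12.7-fold (log2 difference 3.67 ± 0.30 (SE), limma adjusted p = 2.18e-08; 3.29 without shared barcodes). Tmsb4x, thymosin beta 4, which binds actin monomers, averaged 81.2, 82.3, 65.3, 68.4 and 53.2 against 12.2, 12.8, 11.5, 9.77 and 10.4, and Pfn1, profilin, 5.33 ± 0.937 against 0.666 ± 0.219. Cstb, an inhibitor of lysosomal cysteine proteases, was at 1.53 ± 0.502 against 0.119 ± 0.0953, and Ost4, Nop10, Ndufa7, Ndufb6, Mrpl41, Med28, Fam96b, Ddah1 and Vps29 were further members of the 15 genes with the largest positive difference. Of these 15, Vps29 lost its call without shared barcodes (1.39, limma adjusted p = 0.089). Below, besides Meg3, Miat, Neat1 and Col5a3, came Snrnp70, a protein of the U1 splicing particle (0.625 ± 0.314 against 14.2 ± 3.6), Ryr2, a calcium release channel (0.228 ± 0.315 against 4.78 ± 1.1), Fam193b (0.0581 ± 0.0662 against 3.91 ± 1.26) and the noncoding RNA Gm26917 (0.543 ± 0.214 against 13.4 ± 3.91). Hdac7, a histone deacetylase, had 1 UMI and Lncpint, a noncoding RNA, 2 UMIs in the 150 NA2 neurons, against means of 1.79 ± 0.567 and 1.89 ± 0.494 UMIs per 10000 in NA1c.

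Genes higher in NA2 were shorter than genes lower in NA2, by every measure of length taken from the annotation (GENCODE M21, GRCm38, 3681 of 3712 symbols matched to 1 gene). The median genomic span was 9.86 kb for the 1095 matched genes higher in NA2, 66.9 kb for the 1136 lower and 27.0 kb for the 1450 not called. The longest transcript had a median of 1.83, 5.53 and 3.50 kb and of 4, 17 and 9 exons in these sets. Of 445 genes that span under 5 kb, 73.5% were higher in NA2 and 3.82% lower, while of 624 genes over 100 kb 5.77% were higher and 61.5% lower. Without shared barcodes these percentages were 58.5 and 3.25 for short genes and 2.75 and 56.3 for long ones. Across the 3681 genes, which share their libraries and are not independent, the log2 difference correlated with span at Spearman's rho = -0.548, with spliced length at -0.658 and with the mean level at 0.285. As a share of UMIs, genes over 100 kb took 7.06%, 6.27%, 8.15%, 8.13% and 8.88% in NA2 and 14.0%, 15%, 15.4%, 16.8% and 15.9% in NA1c, and genes under 5 kb, mitochondrial ones left out, 26.6% ± 1.2 and 13.8% ± 2.1 (SD, n = 5; exact permutation p = 0.0625 for each). Without shared barcodes NA2 was at 8.22% ± 1.1 for long and 25.7% ± 1.3 for short genes. NA1a and NA1b lay at 14.1% ± 0.67 and 14.5% ± 0.38 for long genes.

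**Figure D5:**
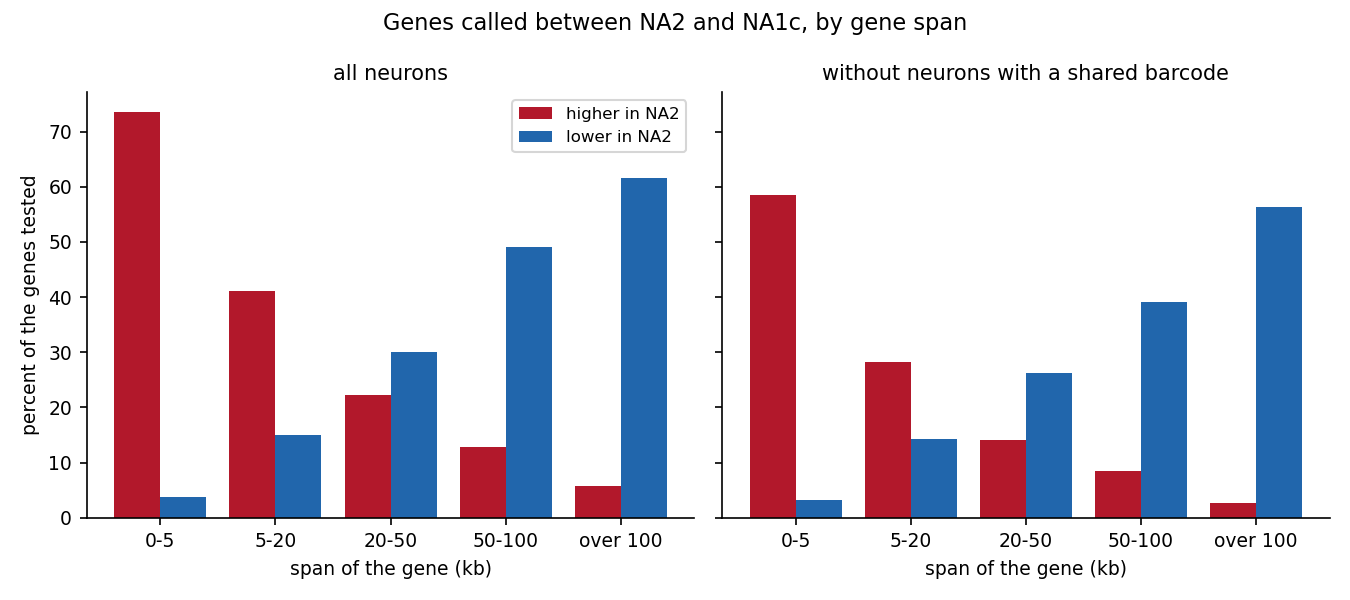
Percent of the genes tested that were higher (red) or lower (blue) in NA2, by the genomic span of the gene in kb, with all neurons (left) and without neurons with a shared barcode (right). The share higher in NA2 falls from 73.5% under 5 kb to 5.77% over 100 kb, and the share lower rises from 3.82% to 61.5%.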

How the data were processed

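Single-cell RNA was measured on the 10x Genomics platform. The authors deposited, for each neuron, the natural log of 1 plus UMIs per 10000, with a table of mouse and subtype for each cell; per the labels, Cell Ranger 2.1.1, Seurat and Scanpy were used with mm10. The study's filters kept cells with over 500 and under 6000 genes, under 20000 UMIs and under 15% mitochondrial UMIs. No doublet step is named in the sources used here and none was applied. Values were exponentiated, and whole UMIs were recovered for 100% of nonzero values (within 0.01). Of 8 mouse names, 5 matched a sample label; the 3 others (301 neurons) entered no test. The same mouse supplied both subtypes, so the mouse was a block.

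Mean UMIs per 10000 of a subtype in a mouse, as log2(value + 0.1), were fitted with limma 3.58.1 in R 4.3.3 with an intensity trend. A single value was compared by the exact two-sided sign-flip permutation test over mice. Residuals of the same mouse correlated at 0.0163 to 0.0941. Genes named are those the paper names, the 15 largest differences in each direction among calls with 1 sign in every mouse, and up to 6 calls of each gene list, with Slc6a2 added after its values were seen; the comparison, the lists and these rules were chosen with earlier results of these data known. Alternatives changed the filter, pseudocount, block, scaling, minimum number of neurons, thinning to 2000 UMIs and the mice; 3 settings on shared barcodes were added after seeing the data. Some members of the lists are counted but not reported here by name.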

Additional observations from a re-analysis of the deposited data

Results flagged for a closer look

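Among 68 groups of 5 values checked, of which chance flags about 1 in 20, 5 held a mouse whose gap to its nearest neighbour exceeded Dixon's 95% critical value of 0.71. NA2 of mouse 5 had a median of 4864 UMIs and 2053 genes per neuron, where the other 4 mice lay between 2046 and 2332 UMIs. NA2 of mouse 4 had 0.481% of UMIs from nuclear noncoding RNAs, where the others lay between 0.964% and 1.12%. The log2 difference of Fam193b was -3.47 in mouse 1, the smallest of the 5 in size, and that of Snrnp70 was -6.51 in mouse 2, the largest in size. NA2 of mouse 2 rested on 14 neurons.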

How the results depend on the processing

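The count of 2253 called genes stayed within 1.5 times under every alternative but the stricter filter, a mean of at least 1 UMI per 10000, which tested 1928 genes and called 1383, with 58.7% of calls higher in NA2 against 49.0%. Without a filter 3266 of 14812 were called and 34.8% of calls were higher. Leaving out each mouse gave 2063 to 2214 calls, the fit with no replicate block 2256, centring on the median gene 2338 (median of all genes 0.17), NA1a and NA1b in the fit 3272 (median -0.27) and thinning to 2000 UMIs, on 4 mice, 1615. With a minimum of 20 neurons, on 3 mice, 2055 were called, and the minimum of 5 changed nothing. Without shared barcodes and with at least 10 neurons left, on 4 mice, 1772 were called, and 1999 with each shared barcode kept once. Of 199 named genes 188 were called, and 40 lost the call or turned in at least 1 setting, 16 of them without shared barcodes on 5 mice, 25 after thinning (where Ngfr gained one) and 10, 4, 3, 4 and 7 without mouse 1 to 5. The block changed no call among them. Only Jun reversed: it was lower in NA2 but at 0.056 without shared barcodes on 4 mice. The mean difference in median UMIs and genes turned to 721 and 120 (119.7) more in NA2 without shared barcodes, with SDs of 2240 and 684. That in the share of neurons turned to 6.40 points more in NA2 with a minimum of 20. The cause was not tested. Depth limits the genes under the filter, which the reported counts leave out.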

Other observations

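Some genes ran against the relation with gene length, and they were chosen after their values were seen. Of the genes that span over 100 kb, 36 were higher in NA2. Ddah1, which degrades an inhibitor of nitric oxide synthase, was at 2.55 ± 0.47 UMIs per 10000 in NA2 and 0.413 ± 0.34 in NA1c (SD, n = 5; log2 difference 2.60 ± 0.36 (SE), 1.85 without shared barcodes). Rtn1, a reticulon of the endoplasmic reticulum, spans 197 kb and was higher in every mouse (log2 difference 1.38 ± 0.17 (SE), 1.13 without shared barcodes), as was Oxct1, a ketone-using enzyme of mitochondria (1.53 ± 0.28, 1.35 without). Snrpn, an imprinted gene, spans 158 kb and was at 1.15 ± 0.18. Tusc3 and Rsu1 had negative differences without shared barcodes (-0.28 and -0.36).

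Of the genes that span under 5 kb, 17 were lower in NA2. They included the heat shock genes Dnajb1 (-1.85 ± 0.36), Hspa1a (-1.19 ± 0.22) and Hspa1b (-1.34 ± 0.27), the noncoding RNAs Gm26917 and Gm42418, and Apoe (-1.24 ± 0.24). Gm42418 varied widely between mice (113 ± 127 UMIs per 10000 in NA2 and 230 ± 243 in NA1c, SD, n = 5) and did not pass without shared barcodes (-0.40, limma adjusted p = 0.223). Hspa1a and Hspa1b are near-identical copies, between which reads may be divided, and Hspa1b missed the threshold without shared barcodes (-0.70, limma adjusted p = 0.0637). Nop56, a nucleolar protein, was at 0.428 in NA2 and 1.17 in NA1c (-1.37 ± 0.39).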
